A study of Mus musculus with 10 samples.

Results

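Toll-like receptors and the proteins that work with them made up 10 of the 9690 genes in a table of mRNA per cell from mouse splenic B cells. These genes are Tlr1, Tlr3, Tlr4, Tlr6, Tlr7, Tlr9, Cd180, Ly86, Myd88 and Unc93b1. They were chosen by name, through the Entrez identifier of each row, and all 10 were found. The series crossed 2 mature B cell types with the loss of LSD1, a histone demethylase that the gene Kdm1a encodes. The cells were unstimulated and splenic, 50000 per library, the mice were C57BL/6J females, and poly(A)-selected RNA was made into stranded libraries. Marginal zone B cells (MZB) were sorted as B220+ CD23- CD21hi CD1d+ cells and follicular B cells (FoB) as B220+ CD23+ CD21mid CD1d- cells, with Thy1.1, F4/80, CD11b, CD93 and GL7 absent from both. The groups were wild-type MZB (3 libraries), knockout MZB (2 libraries), wild-type FoB (2 libraries) and knockout FoB (3 libraries). No source used here gives the allele, any recombinase and its promoter, the age of the mice or any pooling of animals. Separate animals are not stated for libraries of 1 group. The p-values thus reflect only the spread among libraries, in part pooled over genes, and that spread may be technical.

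Toll-like receptors are membrane proteins that bind microbial molecules. TLR1 and TLR6 pair with TLR2 at the cell surface and bind bacterial lipopeptides, TLR4 binds lipopolysaccharide together with MD-2, and the related CD180 sits at the surface in a complex with MD-1, the product of Ly86. TLR3, TLR7 and TLR9 act in endosomes, where they bind RNA (TLR3 and TLR7) or CpG-containing DNA (TLR9), and UNC93B1 is the chaperone that carries them there. MyD88 is the adaptor of all these Toll-like receptors except TLR3, which signals through TRIF. Marginal zone B cells are known for rapid antibody responses to blood-borne microbes and to Toll-like receptor ligands.

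On GRCm38.p6, the assembly of the mm10 build named in the submitters' processing notes, the surface receptors Tlr1 (chromosome 5, 64924680 to 64933600) and Tlr6 (chromosome 5, 64953092 to 64970942) are neighbours on the minus strand. They share 454 windows of 50 bases in their transcripts, 13.6% of those of Tlr1 and 12.3% of those of Tlr6, so reads from these stretches could be credited to either gene. No other pair of the 10 genes shares such a window. Tlr4 lies on chromosome 4 (66827551 to 66846581), Cd180 and Ly86 on chromosome 13 (102693547 to 102706631 and 37345345 to 37419036), Tlr7 on chromosome X (167303380 to 167330574) and Unc93b1 on chromosome 19 (3935158 to 3949340). Exons of Tlr3 (chromosome 8, 45395665 to 45411075) overlap those of Gm45542 on the other strand, exons of Cd180 overlap those of Mast4, and exons of Myd88 (chromosome 9, 119335934 to 119340018) overlap those of Acaa1a. The kit marks strand, but no source used here says whether the counting used it, so reads of these overlapping genes may not have been told apart.

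Promoters of 7 of the 10 genes were found in RefSeq sequence of GRCm38.p6, and those of Tlr4, Tlr7 and Unc93b1 were not used here. The first promoter of 3 genes is shown, from 250 bases before to 50 after the start, 5′ to 3′ on the gene's strand. Tlr3 is the gene with the largest differences below, Tlr9 the endosomal receptor set beside it, and Cd180 the surface relative of TLR4 whose ratio of rescaled means between the wild-type cell types (1.88) is near that of Tlr4 (1.99). Capitals mark matches, on either strand, to the letters GAGGAA (PU.1), ATGCAAAT (octamer) or GTGGGAA (RBPJ), to GGG and CC with any 5 bases between (NF-kB), or, with any 2 bases between, to GGAA and GAAA (PU.1 with an IRF), GAAA and GAAA (interferon-stimulated response element) or TCCC and GGGA (EBF1).
Tlr3, chr8:45410331-45410630, minus strand: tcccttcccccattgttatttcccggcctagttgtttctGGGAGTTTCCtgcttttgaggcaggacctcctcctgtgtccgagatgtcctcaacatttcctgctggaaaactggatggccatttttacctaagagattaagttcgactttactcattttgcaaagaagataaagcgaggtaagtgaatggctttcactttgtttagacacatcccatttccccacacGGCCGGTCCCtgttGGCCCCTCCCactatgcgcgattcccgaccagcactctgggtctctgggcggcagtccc
Tlr9, chr9:106222348-106222647, plus strand: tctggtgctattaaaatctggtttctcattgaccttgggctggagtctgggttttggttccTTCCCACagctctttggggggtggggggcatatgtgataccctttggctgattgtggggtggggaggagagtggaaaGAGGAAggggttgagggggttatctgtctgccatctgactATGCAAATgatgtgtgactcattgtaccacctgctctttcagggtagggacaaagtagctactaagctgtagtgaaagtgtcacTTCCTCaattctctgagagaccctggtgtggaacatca
Cd180, chr13:102693297-102693596, plus strand: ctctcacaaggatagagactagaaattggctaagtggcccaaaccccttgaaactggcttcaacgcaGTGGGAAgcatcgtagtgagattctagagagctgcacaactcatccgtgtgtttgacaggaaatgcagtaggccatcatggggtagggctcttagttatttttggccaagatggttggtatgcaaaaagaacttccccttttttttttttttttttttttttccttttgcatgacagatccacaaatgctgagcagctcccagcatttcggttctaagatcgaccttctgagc
The Tlr3 window holds 3 NF-kB matches, and 50.8% of the 32851 mouse promoter windows of this length hold at least 1. The Tlr9 window (its gene spans 106222598 to 106226876 on chromosome 9) holds 2 PU.1 matches, 1 octamer and 1 RBPJ match, against shares of 28.3%, 1.74% and 6.38% of all windows. The Cd180 window holds 1 RBPJ match. None of the marked matches overlap each other, and the letters of the PU.1-IRF composite (2.72% of all windows), the interferon-stimulated response element (3.44%) and EBF1 (0.904%) are not in these 3 windows. A match is a string of letters, and binding was not measured.

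The libraries held 4161051 to 6711847 reads, worked back from the values, and total mRNA per cell ran from 74815.0 to 121070.6 in MZB and from 43561.9 to 56437.7 in FoB. Fewer transcripts of a gene in each cell and fewer cells that carry it cannot be told apart in such bulk samples. Values are given per cell and also rescaled, which divides each library by the trimmed mean of its log-ratios to the mean library (factors from 0.62 to 1.76), so that a rescaled difference is relative to the other genes. Kdm1a, rescaled, stood at 3.48 and 3.37 in knockout MZB and at 5.63, 5.68 and 5.83 in wild-type MZB. It stood at 3.01, 3.10 and 3.10 in knockout FoB and at 7.0 and 6.84 in wild-type FoB, so knockout libraries were lower in both cell types, with transcript left in each (log2 −0.69 and −1.10, limma adjusted p = 0.000472 and 2.59e-05). Per cell the MZB difference of −0.39 did not pass (limma adjusted p = 0.118). All 14 MZB markers and all 9 FoB markers were in the table. They include Cr2, Cd1d1 and Fcer2a, the genes for CD21, CD1d and CD23, by which the cells were sorted. A separation of the sorts by these markers is thus not independent of the gating. The rescaled marker sums separated the sorts (MZB markers 546 to 669 in MZB and 150 to 165 in FoB, FoB markers 227 to 254 and 440 to 465). Per cell, the FoB marker sums did not, at 257 to 354 in wild-type MZB and 279 to 361 in wild-type FoB. In knockout libraries these per-cell sums were 389 to 447 in MZB and 279 to 346 in FoB. Single FoB markers also differed in direction between the wild-type sorts after rescaling. S1pr1 favoured MZB (log2 1.3, limma adjusted p = 1.12e-07), Cxcr5 (−0.02, 0.846) and Fcrl1 (0.04, 0.667) did not pass, and the rest were lower in MZB. Of the markers of other cells, 1 of 8 for T cells, 4 of 10 for macrophages and monocytes, 2 of 7 for conventional and 3 of 8 for plasmacytoid dendritic cells, and 0 of 5 for neutrophils were in the table. Adgre1, Csf1r, Lyz2, Siglech and Ccr9 are not listed in it.

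In wild-type MZB, the most abundant of the 10 transcripts was that of the chaperone gene Unc93b1, at 95.4 ± 13.1 mRNA per cell (SD, n = 3). Next came the surface pair Ly86 (65.5 ± 12.9) and Cd180 (58.0 ± 9.18), then Tlr1 (45.8 ± 5.50), Tlr9 (27.8 ± 4.29) and Tlr7 (16.4 ± 3.53; SD, n = 3 for each). The adaptor gene Myd88 (6.51 ± 1.5), Tlr6 (5.63 ± 0.573), Tlr3 (5.52 ± 0.647) and Tlr4 (3.59 ± 0.629) were the least abundant. These values scale roughly with read count per transcript length. Across 9530 genes the log of what 1 read adds has a Pearson correlation of −0.88 with log exonic length. The authors' conversion is not known, so levels can be compared between genes only roughly. Ly86 lay above Cd180 in each of the 3 libraries although their ranges overlapped, while Myd88 above Tlr6 and Tlr6 above Tlr3 held in 2 of 3 libraries, so the order of those 3 genes is not resolved. All other neighbours in the order had separate ranges.

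In wild-type FoB the order began the same way, with Unc93b1 at 45.2 ± 7.34 and Ly86 at 23.9 ± 4.54 mRNA per cell (SD, n = 2). It ended differently, with Tlr7 at 2.73 ± 0.158, beside Tlr6 (2.76 ± 0.765) and Myd88 (3.17 ± 0.463), and with Tlr3 last at 0.204 ± 0.0354, below Tlr4 at 0.983 ± 0.252 (SD, n = 2 for each). Tlr1 (18.2 ± 2.94) and Cd180 (16.8 ± 3.98) had overlapping ranges, as had Myd88 and Tlr6, and Tlr6 and Tlr7. The means of knockout libraries kept the wild-type order in MZB, and in FoB Tlr7 (3.81 ± 0.411) stood above Myd88 (3.39 ± 0.391) in 2 of 3 libraries (SD, n = 3). Tlr3 is thus present at well under 1 mRNA per cell in FoB, a value that rests on 29 to 90 reads in each FoB library, against 290 to 596 in each MZB library.

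**Figure D1:**
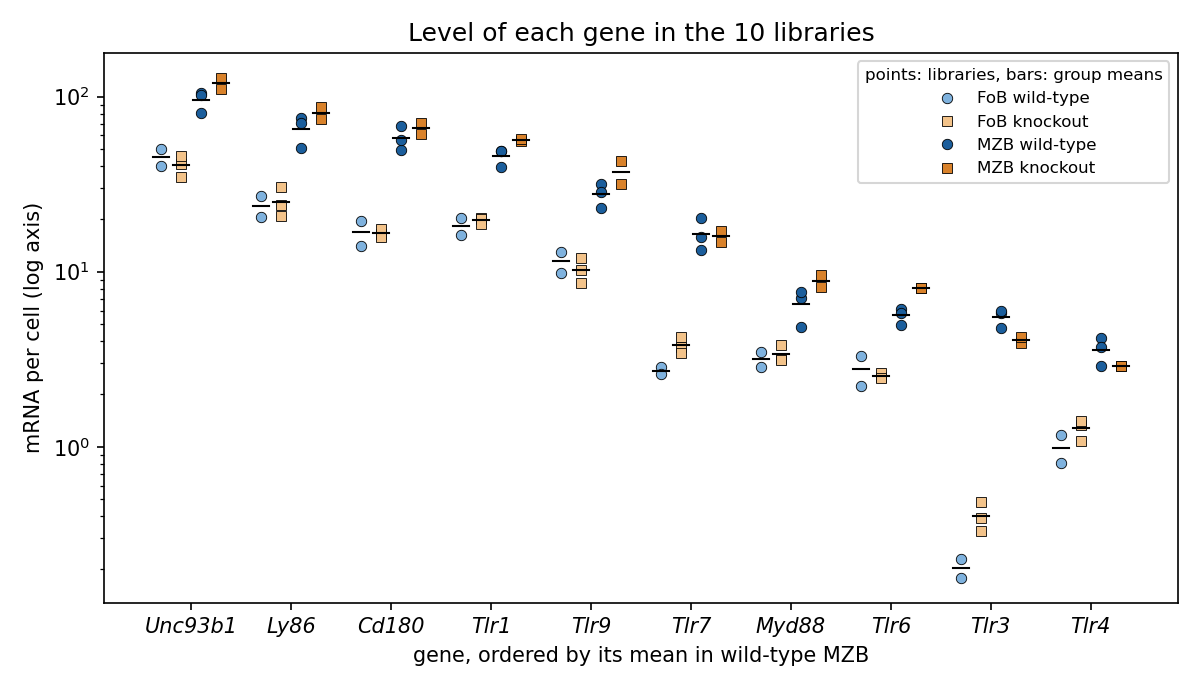
Level of each gene in mRNA per cell (log axis) in each of the 10 libraries (points) with group means (bars), genes ordered by their mean in wild-type MZB. Every gene lies higher in MZB than in FoB, and Tlr3 has the widest gap, from 0.179 to 0.483 in FoB and from 3.91 to 5.97 in MZB.

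The first comparison asked how these transcripts differ between the wild-type cell types. Per cell, all 10 genes were higher in the MZB libraries (limma, Benjamini-Hochberg adjusted over all genes, threshold 0.05), but 84.2% of all genes in the table were called higher too, with a median log2 difference of 0.78. The median of the 10 genes was 1.38. Rescaled, 8 of the 10 were called higher and none lower, against 25.0% and 25.1% of all genes, and the median of the 10 was 0.50 where that of all genes was 0.00. Tlr6 (log2 0.15, 95% interval −0.05 to 0.36) and Myd88 (0.13, −0.09 to 0.35) did not pass, with limma adjusted p of 0.191 and 0.301. Intervals here and below are for single genes and are not adjusted over the table.

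The RNA-binding endosomal receptors differed most. Tlr3 stood at 4.78, 5.80 and 5.97 mRNA per cell in wild-type MZB and at 0.229 and 0.179 in wild-type FoB, a ratio of means of 27.1, or 14.7 after rescaling. The groups were far apart on both scales. The rescaled log2 difference was 2.94 ± 0.13 (SE; limma adjusted p = 2.9e-08), the 27th largest of 9690. On the scale of log2(value + 0.3) such a difference is understated for a gene this low.

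Tlr7, which binds single-stranded RNA, stood at 13.22, 20.22 and 15.84 mRNA per cell in wild-type MZB and at 2.84 and 2.61 in wild-type FoB, again without overlap. Its rescaled log2 difference was 1.61 ± 0.14 (limma adjusted p = 4.04e-06), the 163rd largest. The DNA-binding Tlr9 differed far less. Its libraries stood at 23.18, 31.65 and 28.58 against 13.03 and 9.84, with a rescaled log2 difference of 0.39 ± 0.08 (limma adjusted p = 0.00235). Their shared chaperone gene Unc93b1 stood at 80.33, 104.37 and 101.57 against 50.37 and 40.00, and differed by 0.19 ± 0.07 (limma adjusted p = 0.0298). That last call was lost without wild-type MZB library 3 (adjusted p = 0.0880) and without wild-type FoB library 1 or 2 (0.130 and 0.134).

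Among the surface proteins, Cd180 stood at 49.67, 67.83 and 56.36 mRNA per cell in wild-type MZB and at 19.57 and 13.94 in wild-type FoB, with a rescaled log2 difference of 0.91 ± 0.07 (limma adjusted p = 2.49e-06). Its partner Ly86 differed by 0.56 ± 0.09 (adjusted p = 0.000368 in the same limma fit), from 50.82 to 75.30 in MZB and 20.65 to 27.07 in FoB. Tlr4 stood at 2.91, 4.16 and 3.69 against 1.16 and 0.805, a rescaled log2 difference of 0.86 ± 0.12 (limma adjusted p = 0.000212). Tlr1, at 39.46 to 49.11 against 16.11 to 20.27, differed by 0.45 ± 0.08 (limma adjusted p = 0.000802). For Cd180, Ly86, Tlr4 and Tlr1, as for the endosomal genes, MZB and FoB libraries did not overlap on either scale, and all libraries of MZB were above those of FoB for 35.2% of all genes after rescaling. That share is not given here per cell, where 84.2% of all genes were called higher, so per-cell separation alone does not set these genes apart. Tlr6 (4.99 to 6.08 against 2.22 to 3.31 per cell) and Myd88 (4.8 to 7.63 against 2.84 to 3.49) were separate per cell but overlapped after rescaling.

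**Figure D2:**
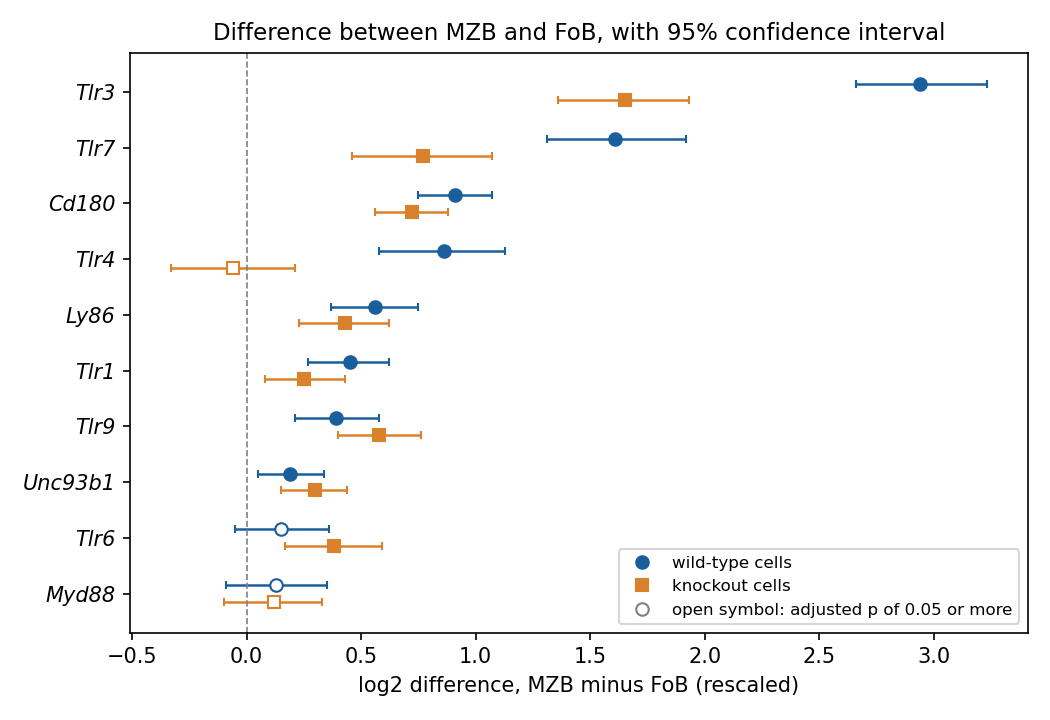
Rescaled log2 difference between MZB and FoB (horizontal axis) for each gene in wild-type cells (circles) and knockout cells (squares), with 95% confidence intervals and open symbols where the adjusted p did not pass. Tlr3 leads in both genotypes, at 2.94 and 1.65, and Tlr4 goes from 0.86 in wild-type cells to −0.06 in knockout cells.

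The same comparison was made between the knockout libraries, with the spread estimated over all 10 libraries. Per cell, all 10 genes were again called higher in MZB, against 97.3% of all genes. Rescaled, 8 of 10 were called higher, against 18.1% of all genes, and 9 of 10 stood above the median gene. The calls were not those of the wild-type comparison. Tlr6 passed here, at 0.38 ± 0.09 (limma adjusted p = 0.00857), while Tlr4 did not, at −0.06 with a 95% interval from −0.33 to 0.21 (limma adjusted p = 0.743).

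Tlr3 remained the gene with the largest difference among the 10, at 1.65 ± 0.13 (limma adjusted p = 3.37e-06). Its ratio of rescaled means was 4.17 in knockout cells, beside 14.7 in wild-type cells. Tlr7 differed by 0.77 ± 0.14 (limma adjusted p = 0.0014), a ratio of 1.72 beside 3.22 in wild-type cells. Tlr4 had a ratio of 0.946 beside 1.99. The tests of these changes of the gap are those of the difference between the knockout effects, given below. The other differences were 0.72 for Cd180, 0.58 for Tlr9, 0.43 for Ly86, 0.30 for Unc93b1, 0.25 for Tlr1 and 0.12 for Myd88, all past the threshold except that of Myd88 (limma adjusted p = 0.389). The calls of Tlr1 (0.18, limma adjusted p = 0.240) and Tlr6 (0.29, limma adjusted p = 0.110) were lost without knockout MZB library 1, and that of Tlr1 also without knockout FoB library 2 (0.19, limma adjusted p = 0.0687).

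The next comparison asked what the knockout changed within MZB. Per cell, 0 of the 10 genes passed the limma threshold, which 14.0% of all genes did, and 4 had an unadjusted p under 0.05, as had 38.7% of all genes. These were Tlr6 (0.50, limma adjusted p = 0.056), Myd88 (0.45, 0.0872), Tlr3 (−0.41, 0.0985) and Tlr9 (0.41, 0.124). The median gene of the table was 0.32 higher in knockout than in wild-type MZB, and that of the 10 was 0.31. With wild-type MZB library 2 left out, Tlr6 (0.56, limma adjusted p = 0.0328) and Myd88 (0.52, 0.0446) passed, and with either wild-type FoB library left out Tlr6 passed (0.50, 0.0438). After rescaling, 2 of the 10 were called and both were lower, against 1.87% of all genes called lower and 5.25% called in either direction.

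Those 2 genes were Tlr3 and Tlr4. Rescaled Tlr3 stood at 2.53 and 2.40 in knockout MZB and at 4.23, 3.94 and 4.41 in wild-type MZB, without overlap, a separation that 21.3% of all genes showed in this direction. It fell to 58.9% of the wild-type mean, a log2 difference of −0.70 ± 0.13 (limma adjusted p = 0.0133; 8.58e-05 to 0.139 over 15 alternatives, 12 of which kept the call). The call was lost without knockout MZB library 1 (−0.73, adjusted p = 0.0696), knockout MZB library 2 (−0.66, 0.139) or wild-type MZB library 1 (−0.69, 0.0512). The direction was the same per cell, where Tlr3 stood at 3.91 and 4.23 against 4.78, 5.80 and 5.97.

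Rescaled Tlr4 stood at 1.87 and 1.65 in knockout MZB and at 2.58, 2.82 and 2.72 in wild-type MZB, again without overlap. It fell to 65.1% of the wild-type mean, a log2 difference of −0.55 ± 0.12 (limma adjusted p = 0.0323; 0.00261 to 0.278 over 15 alternatives, 9 of which kept the call). The call did not survive leaving out any 1 of the MZB libraries, with limma adjusted p of 0.0906 and 0.278 without knockout library 1 or 2 and of 0.0791, 0.0919 and 0.0751 without wild-type library 1, 2 or 3. Per cell, Tlr4 stood at 2.89 and 2.91 against 2.91, 4.16 and 3.69, so both knockout libraries lay at the lowest wild-type value or just under it.

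Tlr7 had a rescaled level of 9.59 and 9.67 in knockout MZB and of 11.69, 13.73 and 11.68 in wild-type MZB. These groups did not overlap either, but the difference of −0.35 (95% interval −0.65 to −0.04) did not pass (limma adjusted p = 0.167). The other 7 genes had rescaled differences from −0.13 (Cd180) to 0.18 (Tlr6) and none passed. Of these, Cd180 (lower in knockout MZB) and Tlr6 (higher) also did not overlap between the genotypes after rescaling. Separation in the lower direction was seen for 21.3% of all genes, and the share for the higher direction is not given here. Per cell these 7 ran from 0.20 to 0.50, near the shift of the median gene. Unc93b1 had nearly the same rescaled level in both genotypes, 72.2 ± 0.372 for knockout (SD, n = 2) and 72.3 ± 2.28 for wild type (SD, n = 3), with an interval of −0.15 to 0.14 for the log2 difference. Intervals for Ly86 (−0.20 to 0.18), Tlr1 (−0.20 to 0.15), Tlr9 (−0.09 to 0.27) and Myd88 (−0.09 to 0.35) were of similar width.

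**Figure D3:**
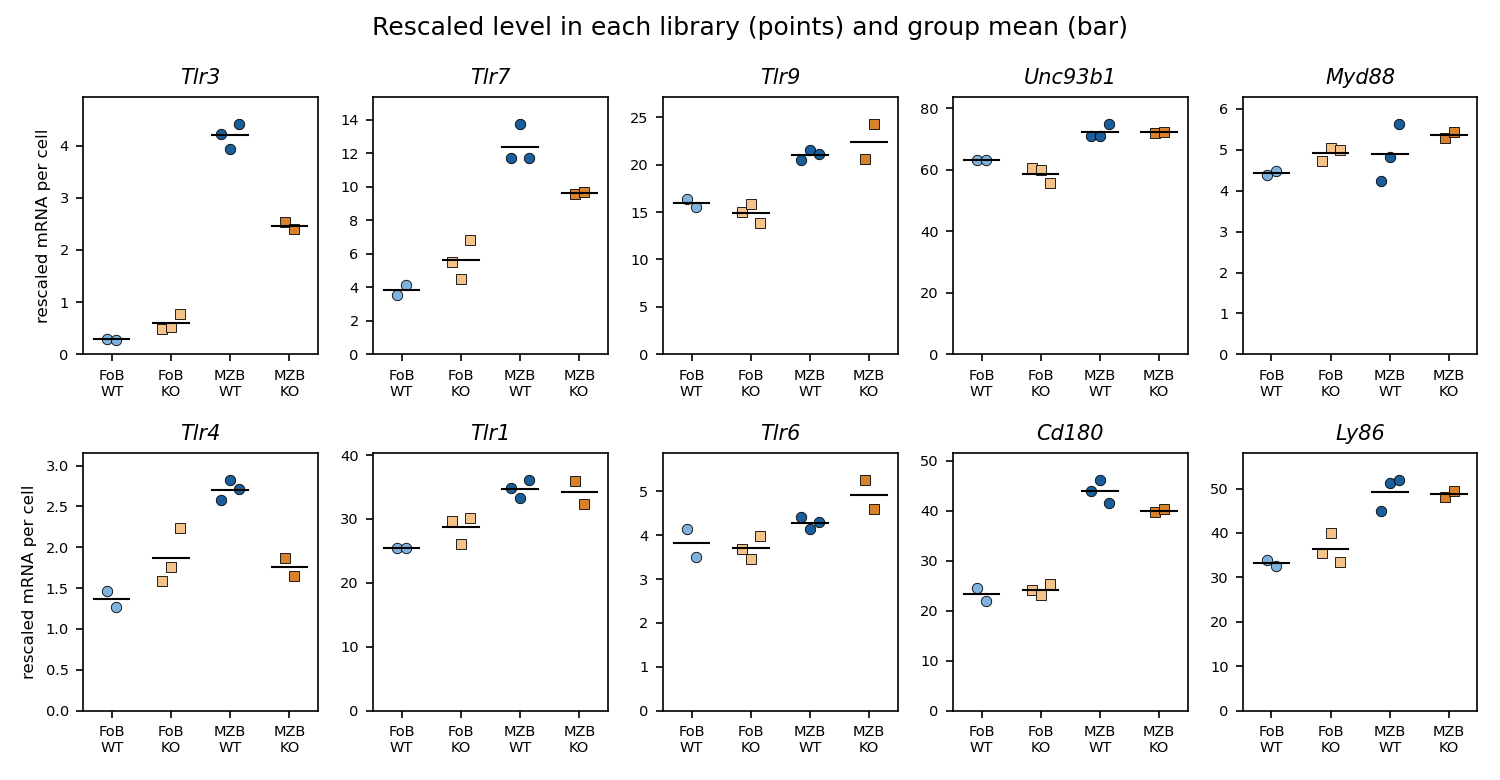
Rescaled mRNA per cell of each gene in each library (points, vertical axes from 0) with group means (bars), for wild-type (WT) and knockout (KO) cells of both types. Tlr3, Tlr7 and Tlr4 show lower knockout than wild-type points in MZB and higher knockout than wild-type points in FoB, while Unc93b1 differs little between genotypes in MZB.

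In FoB, 0 of the 10 genes passed the limma threshold on either scale, against 0.712% of all genes per cell and 0.599% rescaled. At an unadjusted p under 0.05 there were 2 per cell (Tlr3 and Tlr7) and 3 rescaled (Tlr3, Tlr7 and Tlr4), beside 3.85% and 14.6% of all genes. Rescaled Tlr3 stood at 0.489, 0.513 and 0.774 in knockout FoB and at 0.287 and 0.282 in wild-type FoB. All 3 knockout libraries lay above both wild-type libraries, as for 15.2% of all genes, at a mean 208% of the wild-type mean, with a log2 difference of 0.60 ± 0.13 (limma adjusted p = 0.0806). It passed on the recovered reads with limma voom (1.04, adjusted p = 0.0451, where 1.08% of all genes passed) and with a pseudocount of 0.1 (0.83, adjusted p = 0.0478).

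Tlr7 stood at 5.50, 4.51 and 6.81 rescaled in knockout FoB and at 3.56 and 4.12 in wild-type FoB. The groups did not overlap, and the difference was 0.50 ± 0.14 (limma adjusted p = 0.184). It passed without knockout FoB library 2 (0.64, limma adjusted p = 0.0388). Tlr4 stood at 1.59, 1.76 and 2.24 against 1.46 and 1.27, also without overlap, with a difference of 0.37 ± 0.12 (limma adjusted p = 0.248). Knockout FoB library 3 was the highest of its group for all 3 genes. For the other 7 genes the rescaled differences ran from −0.10 (Tlr9 and Unc93b1) to 0.17 (Tlr1). Of these, Tlr1 and Myd88 (higher in knockout FoB) and Unc93b1 (lower) also did not overlap between the genotypes after rescaling. Separation in the higher direction was seen for 15.2% of all genes, and the share for the lower direction is not given here.

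The difference between the knockout effects in MZB and FoB is the direct test of whether the 2 cell types responded alike, and equally of whether the gap between them changed. It was called for 1 of the 10 genes on each scale, where 2.34% of all genes were called per cell and 0.31% rescaled. That gene was Tlr3, with a rescaled difference of −1.29 ± 0.18 (limma adjusted p = 0.0222, 0.00171 to 0.161 over 15 alternatives), the 36th lowest of 9690. Per cell it was −0.88 ± 0.26 (limma adjusted p = 0.0476, 0.0269 to 0.378 over 15 alternatives). The rescaled call was kept in 9 of its alternatives and the per-cell call in 5. Rescaled, it was lost without knockout MZB library 1 or 2 (limma adjusted p = 0.0746 and 0.161), wild-type MZB library 1 (0.0693) or wild-type FoB library 1 or 2 (0.0707 and 0.106), and without wild-type MZB library 3 it was barely kept (0.049986). Per cell, it was lost without knockout MZB library 1 or 2 (0.101 and 0.153), wild-type MZB library 3 (0.0939), knockout FoB library 1 or 3 (0.0511 and 0.137) or wild-type FoB library 1 or 2 (0.129 and 0.0681), with a pseudocount of 1 (0.0621) and with no trend (0.0587). The other loss on each scale is given with the processing choices.

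Tlr4 and Tlr7 came next among the 10, with rescaled differences of −0.92 ± 0.17 and −0.84 ± 0.20 that did not pass (limma adjusted p = 0.0623 and 0.0786). Both passed on the recovered reads with limma voom, at −1.08 (adjusted p = 0.00558) and −0.89 (0.00905), where 6.34% of all genes passed. Tlr4 also passed without knockout FoB library 1, 2 or 3 (−1.01, −0.95 and −0.80, limma adjusted p = 0.0358, 0.0402 and 0.0415), and Tlr7 without knockout FoB library 2 (−0.98, 0.0269). The other 7 genes had rescaled differences between −0.19 and 0.23, and none passed.

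**Figure D4:**
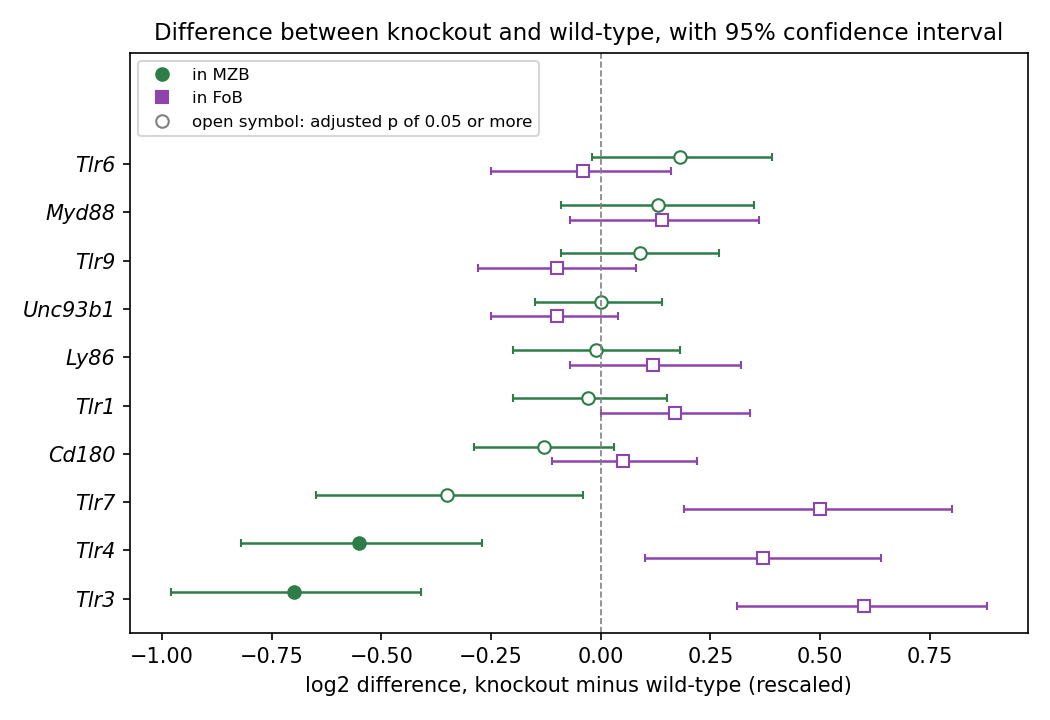
Rescaled log2 difference between knockout and wild-type cells (horizontal axis) for each gene in MZB (circles) and FoB (squares), with 95% confidence intervals and open symbols where the adjusted p did not pass. For Tlr3, Tlr4 and Tlr7 the MZB interval lies below 0 and the FoB interval above 0, and for the other 7 genes the 2 intervals overlap.

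Levels of other markers moved with these groups. The rescaled sum of the 14 MZB markers was 614 to 669 in wild-type MZB and 546 to 575 in knockout MZB. Per cell that sum was 709 to 907 and 888 to 962. Rescaled, Zc3h12c (log2 −0.79, limma adjusted p = 0.0123), Asb2 (−0.49, 0.0323) and S1pr3 (−0.42, 0.0429) were lower in knockout MZB. So were Cr2 (−0.39, limma adjusted p = 0.0318) and Pik3r4 (−0.31, 0.0442), and the other MZB markers did not pass. The rescaled sum of the 9 FoB markers was 227 to 241 in wild-type MZB and 252 to 254 in knockout MZB. Single FoB markers moved more than their sum. Fcer2a (log2 1.03, limma adjusted p = 0.00311), Itgb7 (1.48, 4.21e-05), Klf2 (0.65, 0.00246) and Bach2 (0.59, 0.043) were higher in knockout than in wild-type MZB. S1pr1 (−0.47, 0.00435) was lower there, and the rest did not pass. Itgb7 (1.3, limma adjusted p = 0.00572) and Klf2 (0.83, 0.0222) were also called for the difference between the knockout effects. The sum of the 4 listed macrophage and monocyte markers (Cd68, Ly6c2, Ms4a7 and Itgam, the gene for CD11b, by which cells were gated out) was 2.70 to 4.46 in wild-type MZB and 5.75 to 6.66 in knockout MZB, and 1.77 to 2.42 in wild-type FoB and 4.66 to 6.50 in knockout FoB. Of these 4 genes, Ly6c2 (log2 2.52 rescaled, limma adjusted p = 0.00151) and Itgam (1.17, 0.000898) were higher in knockout than in wild-type MZB, while Cd68 (−0.05, 0.924) and Ms4a7 (−0.37, 0.15) did not pass. The same held in FoB, with Ly6c2 (2.12, limma adjusted p = 0.00671) and Itgam (0.69, 0.0338) higher in knockout libraries and Cd68 (0.717) and Ms4a7 (0.987) not passing. The sum of the 5 B-1 cell markers was 7.70 to 8.24 and 11.2 to 13.0 in wild-type and knockout MZB, and 6.56 to 7.02 and 8.13 to 9.57 in FoB. Of these, Spn was higher in knockout MZB (1.33, limma adjusted p = 0.000527) and knockout FoB (0.94, 0.00652). Cd5 passed in MZB alone (0.97, limma adjusted p = 0.00739), and the rest passed in neither. The 3 listed plasmacytoid dendritic cell markers, which include Tcf4 and Bst2, summed to 13.9 to 14.0 and 14.0 to 15.7 in MZB, and to 9.15 to 10.9 and 10.7 to 12.5 in FoB. The 2 listed conventional dendritic cell markers, Flt3 and Cst3, summed to 9.11 to 9.46 and 12.7 to 15.0 in MZB, and to 15.8 and 16.5 to 20.3 in FoB. Flt3 was higher in knockout MZB (1.5, limma adjusted p = 0.000209) and knockout FoB (1.08, 0.002). Cst3 passed in MZB (0.45, limma adjusted p = 0.0251) but not in FoB (0.2, 0.368). The single listed marker of T cells, Lck, stood at 2.70 to 3.36 rescaled in wild-type and 4.59 to 4.79 in knockout MZB (limma adjusted p = 0.0189), and at 4.15 to 4.34 and 4.33 to 5.42 in FoB. That of platelets, Itgb3, stood at 0.672 to 0.779 and 1.36 in MZB (limma adjusted p = 0.00237) and at 2.39 to 2.48 and 2.02 to 2.06 in FoB. That of NK cells, Klrd1, stood at 0.0697 to 0.404 and 0.625 to 0.703 in MZB, without passing (limma adjusted p = 0.125), and at 0 to 0.0463 and 0.0857 to 0.615 in FoB. The part of these cells in the values of Tlr3, Tlr4 and Tlr7 was not tested.

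Ratios between 2 genes of the same library do not depend on how the libraries are scaled, and are given as a description. Tlr3 stood at 20.6, 18.3 and 20.9 per 100 Tlr9 in wild-type MZB and at 12.3 and 9.90 in knockout MZB. In FoB the order was the opposite, with 1.76 and 1.82 in wild-type and 3.26, 3.24 and 5.60 in knockout libraries. Wild-type and knockout libraries did not overlap in either cell type. For this and the ratios below, the share of all gene pairs that separate in this way was not counted. For single rescaled genes it was 21.3% lower in knockout MZB and 15.2% higher in knockout FoB. Tlr7 stood at 57.0, 63.9 and 55.4 per 100 Tlr9 in wild-type and at 46.6 and 39.8 in knockout MZB, and at 21.8 and 26.6 in wild-type and 36.7, 28.6 and 49.2 in knockout FoB. The balance of the RNA-binding to the DNA-binding endosomal receptors thus lay closer together in MZB and FoB of the knockout than of the wild type. Tlr4 stood at 5.86, 6.13 and 6.54 per 100 Cd180 in wild-type and at 4.72 and 4.09 in knockout MZB, and at 5.93 and 5.77 in wild-type and 6.59, 7.64 and 8.84 in knockout FoB. Cd180 stood at 89.3 ± 8.80 per 100 of its partner Ly86 in wild-type MZB (mean and SD over 3 libraries) and at 81.9 ± 0.686 in knockout MZB (over 2), with both knockout libraries inside the wild-type range, and at 69.9 ± 3.38 in wild-type and 67.1 ± 9.03 in knockout FoB. Tlr1 per 100 Tlr6 was 812 ± 23.8 in wild-type and 696 ± 14.0 in knockout MZB, and 669 ± 78.6 in wild-type and 773 ± 29.7 in knockout FoB, again without overlap and in opposite directions. Reads from the stretches that Tlr1 and Tlr6 share could be credited to either gene.

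**Figure D5:**
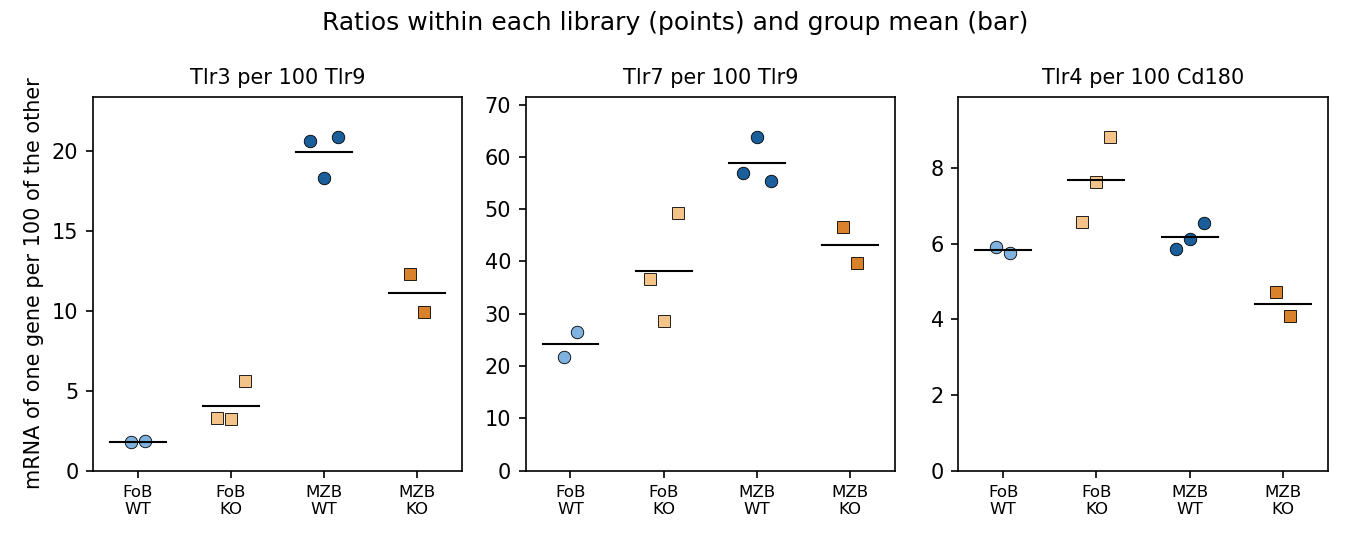
Number of transcripts of one gene per 100 of another within each library (points, vertical axes from 0) with group means (bars). In each panel (Tlr3 and Tlr7 per 100 Tlr9, Tlr4 per 100 Cd180) the knockout (KO) points lie below the wild-type (WT) points in MZB and above them in FoB.

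The rest of the pathway was read from lists. Of 10 other Toll-like receptors and co-receptors, 3 were in the table. Rescaled, Cd36, a scavenger receptor that helps TLR2 with lipids and is also among the 14 MZB markers, was 2.93 higher in MZB of the wild type (limma adjusted p = 5.82e-09), and Ly96, which encodes the TLR4 partner MD-2, was 2.29 higher (adjusted p = 6.15e-05 in that fit). In knockout MZB, Ly96 was −0.78 from the wild-type level without passing (limma adjusted p = 0.127), and Tlr2 rose by 0.42 (limma adjusted p = 0.0463). In FoB, Tlr2 differed by 0.44 without passing (limma adjusted p = 0.12), and the difference between its effects was −0.02 (0.946). Counts of calls between the wild-type cell types stand beside 25.0% of all genes called higher and 25.1% lower after rescaling, and 84.2% higher per cell. The lists of signalling genes had more lower than higher calls after rescaling and no lower call per cell, where the median gene was 0.78 higher. Of 23 adaptors, kinases and ubiquitin ligases, 3 were higher and 11 lower in MZB when the wild-type cell types were compared, with a median of −0.17 beside 0.00 for all genes, while per cell 16 were higher and 0 lower. Ikbke, a kinase upstream of interferon regulatory factors, was among the higher (1.51), and Pik3ap1, the adaptor BCAP, among the lower (−0.68).

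Of 8 transcription factors of the signal, 1 was higher (Nfkbiz, named after its value was seen, 0.37) and 5 were lower, among them Irf8 (−0.82) and the NF-kB subunit gene Rela (−0.76), with a median of −0.40 (per cell, 4 higher and 0 lower). Of 12 negative regulators in the table, 4 were higher and 7 lower, including Tnip1 (−0.60) and Tnfaip3 (−0.58), which encodes the ubiquitin-editing enzyme A20, with a median of −0.24 (per cell, 9 higher and 0 lower). Of 16 chaperones, trafficking factors and proteases, 6 were higher and 5 lower, shares not far from those of all genes, with a median of −0.04 (per cell, 15 higher and 0 lower). The cathepsin gene Ctsb was 0.99 higher, and Ap3d1, a subunit of the adaptor complex that sorts cargo to lysosome-related organelles, stood at −0.43, though it was higher per cell (0.43). Of 9 other nucleic acid and bacterial sensors, 4 were higher, including Nod2 (1.16) and Nod1 (0.66), and Sting1, which encodes the adaptor of cytosolic DNA sensing, was lower (−0.66), with a median of 0.33 (per cell, 8 higher and 0 lower).

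In knockout against wild-type MZB, rescaled, these 6 lists held 5 calls, all higher. They were Tlr2, the inhibitory IRAK family gene Irak3 (0.44, limma adjusted p = 0.00535, named after its value was seen), Pik3ap1 (0.32, 0.0498), Tnfaip3 (0.35, 0.044) and Sting1 (0.41, 0.0154). That made 1 call of 3 receptors, 2 of 23 adaptors and kinases, 1 of 12 negative regulators and 1 of 9 sensors, beside 0 of 16 and 0 of 8 in the chaperone and transcription factor lists, with 3.38% of all genes called higher. In FoB no gene of the lists passed in knockout against wild-type cells, and the lowest limma adjusted p was 0.113, for Irf3 (−0.30). No gene of the lists was called for the difference between the knockout effects, so the MZB calls do not show a response particular to MZB. Alternatives are not given for these list calls. The median rescaled differences of the lists in knockout MZB ran from −0.27 for the other receptors to 0.14 for the transcription factors, beside 0.02 for all genes.

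Likeness across all 10 libraries was taken as the Pearson correlation of rescaled log2 values, a description dominated by the contrast between the 2 cell types. The 3 genes most like Tlr3 were Marcks (r = 0.996), Rrbp1 (0.994) and Trim30d (0.991), and 845 genes of the table exceeded 0.9. Marcks, which encodes a membrane-bound substrate of protein kinase C, had rescaled means of 20.1 in wild-type and 11.7 in knockout MZB, and of 2.85 in wild-type and 4.12 in knockout FoB. The gene with the smallest wild-type difference, Myd88, had the DNA and RNA sensor gene Zbp1 (0.865), Lpar2 (0.841) and Ddit4 (0.825) as its most similar genes, and none above 0.9.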

How the data were processed

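The 10 libraries were deposited by the authors as 1 table of 9690 genes. Its values are the authors' signal in mRNA per cell, made by STAR alignment to mm10 per the submitters' processing notes. For versions, the counter, the annotation, the gene filter and the conversion to mRNA per cell, the methods were not given in the sources used here. Values of 100% of genes were whole multiples of what 1 read adds (within 0.02 reads), which gave reads per library. Of the identifiers, 9681 matched a symbol and 9 did not. No 2 libraries were identical.

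From these values limma 3.58.1 (R 4.3.3) was fitted to log2(value + 0.3) of all 10 libraries, with a moderated spread that follows the mean, per cell and rescaled (trims 0.3 and 0.05). The moderation pools spread over genes, with a median of 86.9 prior degrees of freedom per cell and 5 rescaled. Per-cell p-values thus rest mostly on pooled spread. Library-wide differences within a group are shared by all genes, so these p-values may be too small. The tests were two-sided, with Benjamini-Hochberg adjustment over 9690 genes and a threshold of 0.05. The comparisons were MZB against FoB within each genotype, knockout against wild type within each cell type, and the difference between the knockout effects. Each of the first 4 shares libraries with 2 of the others, and all use 1 estimate of the spread. The plan foresaw a count model had the values been counts; limma voom on the recovered reads was run as an alternative instead, with other pseudocounts, no trend, only the compared groups, a replicate block and each library left out. The fits were tested on simulated data. Equal totals, and the block and pseudocounts on the rescaled values, were chosen after seeing the data.

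The 10 genes, the pathway lists and the marker lists were chosen with earlier results of these data known. Named from each list were up to 4 genes with the smallest rescaled p in any of the 4 pairwise comparisons. The genes most like a member were taken for those with the highest and the lowest rescaled difference between wild-type cell types. Same-numbered libraries of different groups did not deviate together (correlations from −0.19 to 0.19), so the numbers were not used to pair them. Symbols, positions and promoters are from RefSeq on GRCm38.p6.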

Additional observations from a re-analysis of the deposited data

Results flagged for a closer look

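The knockout effect on Tlr3 passed the threshold in the test of the difference between the cell types, a call that did not hold under many alternatives. Per cell the difference between the effects in MZB and FoB was −0.88 on the log2 scale (SE 0.26; limma adjusted p = 0.0476), and rescaled it was −1.29 (SE 0.18; limma adjusted p = 0.0222). Both knockout MZB libraries were below all 3 wild-type MZB libraries on each scale, and all 3 knockout FoB libraries were above both wild-type FoB libraries. The per-cell call held in 5 of 15 alternatives and the rescaled call in 9 of 15, with limma adjusted p up to 0.378 and 0.161.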

How the results depend on the processing

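Per-cell member values kept direction and side of the threshold in 320 of 340 values under alternatives that kept all libraries, and 240 of 250 did so among rescaled values. Counts of all genes depended on the scale. Rescaling took them from 8323 to 4846 (wild-type MZB against FoB), 9469 to 3413 (knockout MZB against FoB), 1356 to 509 (knockout against wild-type MZB) and 227 to 30 (difference between the knockout effects), and members called in knockout against wild-type MZB from 0 to 2. It turned the direction of Kdm1a between wild-type cell types (−0.26), of Tlr4 between knockout cell types (−0.06), of Tlr1 (−0.025), Cd180 (−0.13), Ly86 (−0.011) and Unc93b1 (−0.00083) in knockout against wild-type MZB, and of Tlr1 (−0.19), Cd180 (−0.19), Ly86 (−0.13) and Myd88 (−0.013) in the difference between effects. Per cell, a pseudocount of 1 gave 2 members and 2078 genes in knockout against wild-type MZB, and 0 members and 421 genes for the difference; one of 0.1 gave 134 genes for the difference, and no trend gave 0 members. Fitting only the compared groups gave 128 genes in knockout against wild-type FoB, against 69. Rescaled with a pseudocount of 0.1, 1 member passed in FoB. With limma voom, 1103 genes passed in knockout against wild-type MZB, 1 member and 105 genes in FoB, and 3 members and 614 genes for the difference.

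The replicate number as a block, per cell, gave 528 genes in knockout against wild-type MZB, with Tlr7 at 0.0037, and 0 members and 110 genes for the difference, where Tlr3 stood at −0.74 (limma adjusted p = 0.378). Rescaled, the block gave 1 member and 270 genes in knockout against wild-type MZB (Tlr1 0.0062), 35 genes in FoB against 58, Tlr4 at 0.0027 between knockout cell types, and 0 members and 4 genes for the difference (Myd88 0.097). With it the rescaled calls of Unc93b1 between wild-type cell types (limma adjusted p = 0.0609), of Tlr4 in knockout MZB (0.0864) and of the Tlr3 difference (0.0749) were lost.

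Leaving out 1 library in turn, per cell, gave 0 to 2 members and 272 to 2791 genes in knockout against wild-type MZB, 39 to 123 genes in FoB, and 0 to 1 members and 59 to 744 genes for the difference. Uncalled values that changed sign were Tlr7 in MZB (−0.17 to 0.13) and, in FoB, Tlr1 (−0.047 to 0.28), Tlr6 (−0.35 to 0.17), Tlr9 (−0.35 to 0.049), Cd180 (−0.24 to 0.24), Ly86 (−0.12 to 0.26), Myd88 (−0.047 to 0.23) and Unc93b1 (−0.32 to 0.011), with the Cd180 difference (−0.046 to 0.43). Rescaled, leaving out 1 library gave 1998 to 3366 genes between knockout cell types (Tlr4 −0.15 to 0.063), 0 to 2 members and 62 to 951 genes in knockout against wild-type MZB, 0 to 1 members and 25 to 69 genes in FoB, and 0 to 3 members and 1 to 337 genes for the difference. There the sign changed for Tlr1 (−0.1 to 0.052), Tlr9 (−0.029 to 0.21), Ly86 (−0.074 to 0.027) and Unc93b1 (−0.013 to 0.026) in MZB, Tlr6 (−0.15 to 0.071) and Cd180 (−0.024 to 0.13) in FoB, and the Myd88 difference (−0.1 to 0.086). The causes of these changes were not tested. Where an arm was left with 1 library, it was assumed to vary like the other groups. Depth limits Tlr3 most, with 29 to 90 reads in each FoB library.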
